A study of Mus musculus with 33 samples.

Results

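The proneural and neuronal basic helix-loop-helix (bHLH) genes are a family of transcription factor genes that drive cells of the neural tube to become neurons. The family was taken as 9 genes named for this description: Neurog1, Neurog2, Neurod1, Neurod4, Nhlh1, Nhlh2, Atoh1, Olig3 and Ptf1a. The RNA table of the study holds 7 of the 9 among its 14717 genes, and Atoh1 and Olig3 were not analysed here. RNA was measured in P19, a line of mouse embryonal carcinoma cells with the capacity for neural and mesodermal differentiation. The 15 RNA libraries fall into 5 groups of 3: undifferentiated cells (D0), cells given 1% DMSO and taken at day 3 (D3DMSO) or day 6 (D6DMSO), and cells given 1 uM all-trans retinoic acid (RA) and taken at day 3 (D3RA) or day 6 (D6RA). Treated cells were first grown as aggregates called embryoid bodies and then moved to flasks with maintenance medium. All groups derive from this 1 line, and no group carries an engineered allele. The series' design text calls the 3 libraries of a condition biological replicates and does not name the cultures they came from, so the p-values reflect only the spread of these libraries, which may be technical.

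Proneural factors bind a DNA motif called the E-box (CANNTG) as partners of the broadly expressed E proteins. Neurogenins act early, in dividing progenitors, where they switch on Notch ligands and the later NeuroD and Nhlh factors. NeuroD and Nhlh factors follow in cells that leave the cell cycle and differentiate. Id proteins take E proteins away from proneural factors, and Hes repressors, which act downstream of Notch, silence proneural genes. Ptf1a is needed for inhibitory neurons of the dorsal spinal cord, the cerebellum and the retina, and also for the acinar cells of the pancreas.

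Promoter windows from RefSeq (GRCm38.p6) covering the 250 bases before each gene's start were matched for 7 of the 7 genes, with 8 windows because Neurod4 has 2 starts. The windows of Nhlh1, Nhlh2 and Neurod1 are shown because they are the 3 of 7 genes that hold an E-box, in capitals, and because Nhlh1 and Nhlh2 share one form of it. They lie at chr1:172057597-172057846 (minus strand), chr3:102009895-102010144 (plus strand) and chr2:79456637-79456886 (minus strand), and each is printed 5′ to 3′ along its gene.
Nhlh1: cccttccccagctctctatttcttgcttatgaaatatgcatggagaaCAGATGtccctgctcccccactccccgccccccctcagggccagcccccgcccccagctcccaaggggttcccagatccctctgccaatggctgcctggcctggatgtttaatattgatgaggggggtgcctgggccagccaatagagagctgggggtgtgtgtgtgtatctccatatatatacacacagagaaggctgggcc
Nhlh2: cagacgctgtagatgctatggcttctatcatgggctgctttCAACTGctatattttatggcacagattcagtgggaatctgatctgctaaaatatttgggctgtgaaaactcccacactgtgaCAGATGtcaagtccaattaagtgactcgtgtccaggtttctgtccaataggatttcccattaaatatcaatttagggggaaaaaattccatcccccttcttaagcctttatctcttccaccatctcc
Neurod1: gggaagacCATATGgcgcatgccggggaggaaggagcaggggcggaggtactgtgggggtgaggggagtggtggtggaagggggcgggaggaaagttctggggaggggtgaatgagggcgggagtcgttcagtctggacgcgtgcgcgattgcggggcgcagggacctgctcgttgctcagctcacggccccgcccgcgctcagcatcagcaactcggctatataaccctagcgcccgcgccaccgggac
Nhlh1 and Nhlh2 both hold the E-box CAGATG, whose first base lies 203 bases before the start of Nhlh1 and 127 bases before that of Nhlh2. Nhlh2 has a further E-box, CAACTG, 209 bases before its start, and Neurod1 has CATATG 242 bases before its start. Searched on both strands, CANNTG occurs in 66.22% of 32851 promoter windows of the same length, and CAGATG or CATCTG, which is contained in that pattern, in 14.44%. The count of 3 of 7 genes was thus below the share among all promoters, and 2 of 7 for CAGATG or CATCTG was above it. These are matches of letters in a short window, and distant regulatory regions were not searched.

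Levels are given in CPM, counts scaled to library size, on the scale of the deposited values. Total counts per library were 3.55 to 9.88 M at D0 and D3 and 38.2 to 49.6 M at D6. One count stood for 0.0911 to 0.457 CPM in D3RA and for 0.0313 to 0.0410 CPM in D6RA. Mitochondrial genes took 41.5 to 55.8% of the counts at D6 and 0% at D0 and D3. The libraries of D6 and D3 differ in depth and in their share of mitochondrial counts as well as in day, and these cannot be told apart. At D0 and D3 a set of 4 genes took between 1.97% and 45.7% of the non-mitochondrial counts of a library. Levels of different genes were not corrected for transcript length and are not compared with each other.

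The labels were checked against marker genes. The summed level of 10 of 10 neuron markers was 1065 to 1329 CPM in D3RA and 3547 to 3797 CPM in D6RA, against 40.4 to 410 CPM in the libraries of the other groups. In D3RA against D0, 9 were called higher and 1 lower, Stmn2, at 76.2 ± 11 against 171 ± 7.7 CPM. Neural progenitor markers (8 of 9 in the table) summed to 2954 to 3099 CPM in D3RA and 3710 to 3797 CPM in D6RA, against 547 to 925 CPM elsewhere. Much of the sums with RA was Vim, at 1905 CPM in D3RA and 2205 CPM in D6RA. In D3RA against D0, 7 were called higher and 1 lower, Sox2, at 147 ± 12 against 228 ± 24 CPM. Endothelial markers (5 of 5) summed to 141 to 203 CPM in D3RA, 133 to 155 CPM in D6DMSO and 20.5 to 29.4 CPM in D6RA. Pluripotency markers (5 of 6) summed to 1451 to 1659 CPM at D0 and 2.37 to 6.39 CPM in D3RA, where Fgf4 had 0 counts. Of the pancreatic acinar markers, 0 of 5 are in the table. The part that the mix of cell types plays in the results on the bHLH genes was not tested. In these bulk samples, fewer cells of a type and less RNA per cell cannot be told apart.

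Members of the family entered the table only through RA libraries: each of the 7 genes reached 1 CPM in 6 of 6 RA libraries, and 6 of the 7 reached it in 0 of the 9 others. Neurog2 was the exception, at 1 CPM or more in 2 of the 9. A gene that entered the table in this way had to differ between treatments, so the counts of genes called between RA and the other groups are a description. The same holds for the calls and adjusted p-values of each single gene in these comparisons, given below. At day 3, RA libraries were called higher than DMSO libraries for 7 of 7 genes (limma, Benjamini-Hochberg adjusted p under 0.05), in a comparison that called 30.7% of all 14717 genes higher. Against D0, 7 of 7 were called higher in D3RA, with 35.0% of all genes called higher. At day 6, 7 of 7 were called higher in D6RA than in D6DMSO, with 32.6% of all genes called higher. Of all genes, 18.9% were called higher with RA at both days. The median log2 fold change of the 7 genes was 6.44 at day 3 and 6.85 at day 6, beside medians of -0.01 and -0.02 over all genes. The day 3 median is the value of Neurod4, which had 0 counts in D3DMSO. The day 6 median is the value of Ptf1a, which had 0 counts in D6DMSO. The size of both medians thus depends on the count added inside the deposited log2 values and on library depth.

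**Figure D1:**
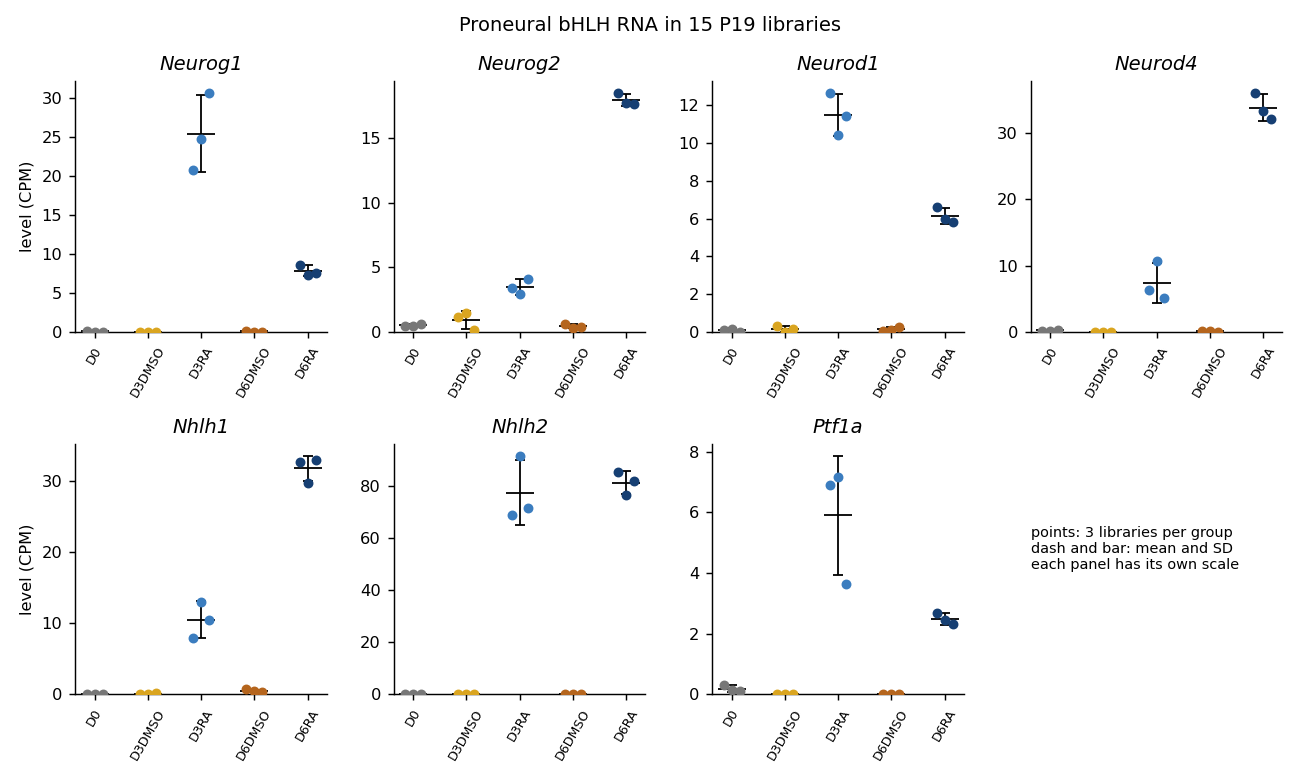
Level of each of the 7 bHLH genes in CPM (vertical axis, linear, starting at 0) in the 5 groups on the horizontal axis. Points are libraries and bars are the mean with its SD of 3 libraries. Neurog1 peaks in D3RA (20.8 to 30.6 CPM), Neurod4 and Nhlh1 are highest in D6RA, and Nhlh2 stands at 69.1 to 91.9 CPM in the 6 RA libraries and under 1 CPM elsewhere.

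Neurog1 encodes neurogenin 1, a factor that commits progenitors to a neuronal fate. Its level was 20.8, 24.8 and 30.6 CPM in the D3RA libraries and 8.61, 7.25 and 7.58 CPM in the D6RA libraries. D0 held 1 count of it in all, D3DMSO held 0 and D6DMSO held 2. The RA libraries thus stood clear of the rest, and the lowest D3RA library was above the highest D6RA library. Neurog1 was at least 141-fold higher in D3RA than in D3DMSO, taking 3 counts over the group as the floor, with a log2 fold change of 8.27 ± 0.60 (SE, adjusted p = 3.71e-09). In D6RA it was 272-fold higher than in D6DMSO, with a 95% counting interval of 75.1 to 2254 (adjusted p = 5.64e-09). Between the RA groups Neurog1 was lower at day 6, with a log2 fold change of -1.69 ± 0.60 (adjusted p = 0.0192), and its level was 2.91-fold higher in D3RA than in D6RA. That call was lost without D3RA replicate 3 (adjusted p = 0.0636), D6RA replicate 2 (0.0577) or D6RA replicate 3 (0.0543), in a range of 1.74e-08 to 0.0636 over 16 alternatives.

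Neurog2 encodes the related neurogenin 2, which acts in much of the dorsal telencephalon and spinal cord. It was the only one of the 7 genes with counts in 15 of 15 libraries. Its level was 0.410, 0.472 and 0.567 CPM in D0, 1.10, 1.44 and 0.155 CPM in D3DMSO, and 0.614, 0.294 and 0.350 CPM in D6DMSO. In D3RA it was 3.37, 2.93 and 4.11 CPM, and in D6RA 18.5, 17.7 and 17.6 CPM. The 3 RA-free groups overlapped, D3RA lay above them and D6RA lay above D3RA, so its order across days was the reverse of that of Neurog1. Neurog2 was 3.93-fold higher in D3RA than in D3DMSO (log2 fold change 2.26 ± 0.51, adjusted p = 0.00111). In D6RA it was 43.0-fold higher than in D6DMSO (log2 fold change 5.42 ± 0.51, adjusted p = 7.11e-08). From D3RA to D6RA it rose 5.30-fold (log2 fold change 2.33 ± 0.51, adjusted p = 0.000718). D3DMSO replicate 3 stood low on 1 count: without it, Neurog2 was called higher in D3DMSO than in D0 (adjusted p = 0.00325) and lower in D6DMSO than in D3DMSO (adjusted p = 0.000499). Over the 16 alternatives of each, these adjusted p-values ran from 0.00325 to 0.950 and from 0.000499 to 0.684.

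Neurod1 encodes a differentiation factor of neurons and of endocrine cells of the pancreas and gut. Its level was 12.7, 10.4 and 11.4 CPM in D3RA and 6.59, 5.98 and 5.79 CPM in D6RA. D0 held 2 counts of it, D3DMSO 3 and D6DMSO 9. Neurod1 was 74.7-fold higher in D3RA than in D3DMSO, with a counting interval of 25.2 to 365 (adjusted p = 4.29e-07), and 47.3-fold higher in D6RA than in D6DMSO (adjusted p = 4.73e-07). The 3 D3RA libraries lay above the 3 D6RA libraries. The difference between them, -0.92 ± 0.62 on the log2 scale, did not pass the threshold (adjusted p = 0.195). It passed in a fit of these 2 groups alone (0.000392) and with voom weights (5.03e-05), in a range of 5.03e-05 to 0.310 over 16 alternatives.

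Neurod4, also known as Math3, encodes a differentiation factor of neurons in the retina, midbrain and spinal cord. Its level was 6.28, 10.7 and 5.02 CPM in D3RA and 36.1, 33.4 and 32.2 CPM in D6RA. D0 held 5 counts of it, D3DMSO 0 and D6DMSO 3. Every D6RA library stood above every D3RA library, which is the opposite order to that of Neurod1. Neurod4 was at least 43.1-fold higher in D3RA than in D3DMSO (log2 fold change 6.44 ± 0.52, adjusted p = 1.61e-08). In D6RA it was 785-fold higher than in D6DMSO, with a counting interval of 268 to 3810 (adjusted p = 8.64e-11). It rose 4.87-fold from D3RA to D6RA (log2 fold change 2.25 ± 0.52, adjusted p = 0.00112).

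Nhlh1, or Hen1, is switched on in newly formed neurons. Its level was 7.92, 13.0 and 10.5 CPM in D3RA and 32.6, 29.7 and 33.0 CPM in D6RA. D0 held 2 counts of it and D3DMSO 1, while D6DMSO held 35, at 0.702, 0.420 and 0.394 CPM. Nhlh1 was 172-fold higher in D3RA than in D3DMSO, with a wide counting interval of 30.3 to 6819 (adjusted p = 1.28e-09). In D6RA it was 63.4-fold higher than in D6DMSO (log2 fold change 5.96 ± 0.43, adjusted p = 2.23e-09). It rose 3.46-fold from D3RA to D6RA (log2 fold change 1.61 ± 0.43, adjusted p = 0.00327). The D6DMSO libraries also stood above the D3DMSO libraries, by a factor of 9.36 (counting interval 1.57 to 380, adjusted p = 0.000547), though at under 1 CPM in 3 of 3 libraries.

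Nhlh2, or Hen2, is a paralog of Nhlh1 with roles in neurons of the hypothalamus. Its level was 69.1, 91.9 and 71.7 CPM in D3RA and 85.4, 76.7 and 82.1 CPM in D6RA. D0 and D3DMSO held 0 counts of it in 6 of 6 libraries, and D6DMSO held 7. The 2 RA groups overlapped. Nhlh2 was at least 656-fold higher in D3RA than in D0 and at least 457-fold higher than in D3DMSO (log2 fold change 9.88 ± 0.37, adjusted p = 1.27e-12). In D6RA it was 811-fold higher than in D6DMSO (adjusted p = 8.12e-13). From D3RA to D6RA it differed by 0.08 ± 0.37 on the log2 scale (adjusted p = 0.864), less than the spread between libraries. When CPM were taken per non-mitochondrial count and not on the deposited scale, the Nhlh2 means were 62.0 CPM in D3RA and 90.5 CPM in D6RA, so its course between the days is known less well than its difference from DMSO.

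Ptf1a had the fewest counts of the 7 genes in D6RA. Its level was 6.92, 7.17 and 3.65 CPM in D3RA, the last of these on 8 counts, and 2.68, 2.46 and 2.32 CPM in D6RA. D0 held 5 counts of it, and D3DMSO and D6DMSO held 0. Ptf1a was at least 40.4-fold higher in D3RA than in D3DMSO (log2 fold change 6.15 ± 0.51, adjusted p = 1.91e-08) and at least 57.5-fold higher in D6RA than in D6DMSO (log2 fold change 6.85 ± 0.51, adjusted p = 3.00e-09). The D3RA libraries lay above the D6RA libraries, by a ratio of 2.63, with a log2 fold change from day 3 to day 6 of -1.22 ± 0.51 (adjusted p = 0.0409). That call was lost in 7 of 15 alternatives, among them thinning to the smallest library (adjusted p = 0.179) and the omission of D3RA replicate 1 (0.117) or 2 (0.125) or of D6RA replicate 1 (0.0883), 2 (0.101) or 3 (0.114). The range over the 15 was 4.62e-06 to 0.179.

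Between D3RA and D6RA, 3 of 7 genes were called higher at day 6 (Neurog2, Neurod4 and Nhlh1), in a comparison that called 37.2% of all genes higher. Called lower were 2 of 7 (Neurog1 and Ptf1a), beside 32.0% of all genes. Neither share stands far from that of all genes. The ratio of 2 related genes within a library needs no scaling between libraries. The 3 pairs below were chosen after their values were seen, so their ratios are a description, with no test. The log2 ratio of Neurog1 to Neurog2 was 2.61, 3.01 and 2.83 in D3RA and -1.10, -1.28 and -1.22 in D6RA, a difference of -4.02. The log2 ratio of Neurod1 to Neurod4 was 1.01, -0.04 and 1.15 in D3RA and -2.45, -2.48 and -2.47 in D6RA, a difference of -3.17. The log2 ratio of Nhlh1 to Nhlh2 moved the other way, from -3.12, -2.80 and -2.74 to -1.39, -1.37 and -1.32, a difference of 1.53. In each pair the D3RA and D6RA libraries did not overlap. A ratio shows unequal change of the 2 genes and not which of them changed.

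**Figure D2:**
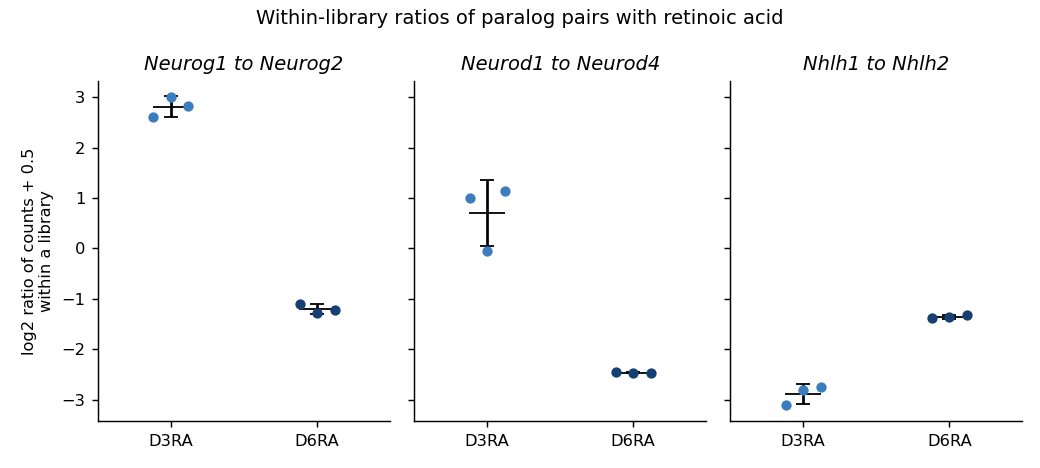
Log2 ratio of the counts of 2 related genes within a library (vertical axis) in D3RA and D6RA (horizontal axis), with points for libraries and bars for the mean and SD of 3 libraries. From day 3 to day 6 the mean ratio changes by -4.02 for Neurog1 to Neurog2, by -3.17 for Neurod1 to Neurod4 and by 1.53 for Nhlh1 to Nhlh2.

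The make-up of the family's RNA moved accordingly. The 7 genes together had 300 to 1395 counts per library in D3RA and 4228 to 5768 in D6RA. Of these counts, Neurog1 held 18.0% ± 3.8 (SD, n = 3) in D3RA and 4.30% ± 0.19 in D6RA. Neurod4 held 5.10% ± 1.5 and then 18.7% ± 0.77, and Nhlh1 held 7.33% ± 0.97 and then 17.5% ± 0.65. Nhlh2 held the most reads in both groups, at 54.6% ± 2.4 and 44.9% ± 0.61. These are shares of reads, and longer transcripts give more reads.

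Whether the excess with RA over DMSO differed between the days was tested with an interaction term, positive where the excess was larger at day 6. It passed for 2 of 7 genes, while 48.5% of all genes were called in it. For Neurog2 it was 3.16 ± 0.73 on the log2 scale (adjusted p = 0.00183) and for Neurod4 2.87 ± 0.74 (adjusted p = 0.00431). For Neurog2 the excess with RA was thus larger at day 6. Neurod4 had 0 counts in D3DMSO, so its excess at day 3 is a lower bound. The size of its interaction depends on the count of 0.5 inside the deposited log2 values. Its adjusted p ran from 0.000632 to 0.0338 over 22 alternatives. The Neurog2 call was lost when libraries were thinned to the smallest (adjusted p = 0.103, in a range of 2.29e-06 to 0.103 over 22 alternatives). For the other 5 genes the interaction lay between -0.54 and 0.70, with adjusted p-values of 0.446 to 0.849. Of these, Neurog1, Nhlh2 and Ptf1a had 0 counts in D3DMSO, and Ptf1a also had 0 in D6DMSO. The size of their interactions thus depends on the same added count. The Ptf1a interaction ran from -1.15 to 0.86 over 21 alternatives. With a count of 2 added in proportion to library size, that of Neurog1 was -1.90 and passed (adjusted p = 0.00318, in a range of 0.00318 to 0.805 over 22 alternatives).

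**Figure D3:**
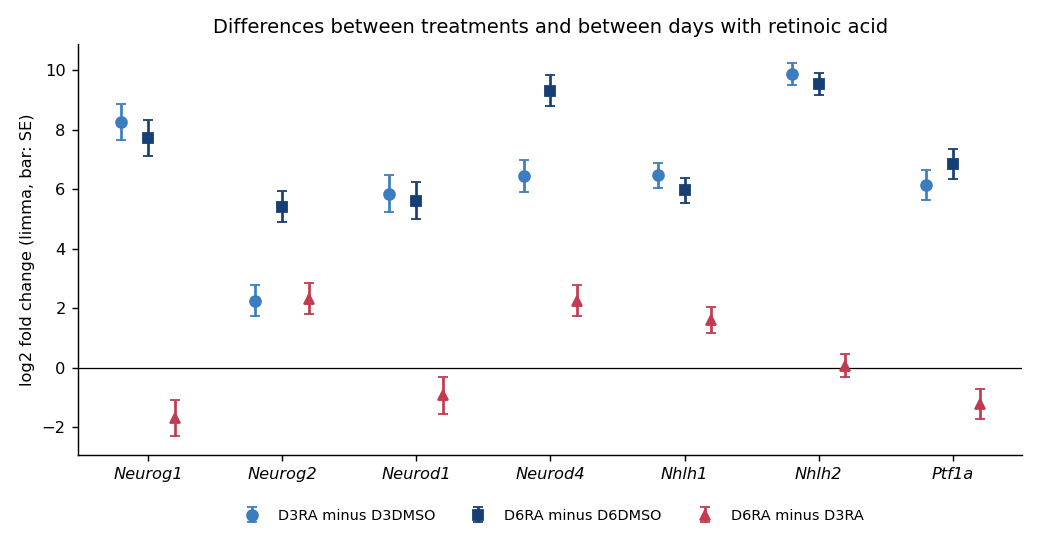
Log2 fold change of each of the 7 genes (horizontal axis) in limma, with bars for the SE, for RA against DMSO at day 3 and day 6 and for D6RA against D3RA. The RA against DMSO differences run from 2.26 (Neurog2, day 3) to 9.88 (Nhlh2, day 3), and those between the RA groups from -1.69 (Neurog1) to 2.33 (Neurog2).

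Without RA, 6 of the 7 genes stayed under 1 CPM in all 9 libraries, and Neurog2 reached it in 2. In D3DMSO against D0, 2 of 7 genes were called (lower for both), beside 56.1% of all genes. These were Neurod4 and Ptf1a, each with 5 counts in D0 and 0 in D3DMSO. Both calls were lost in a fit of the 2 groups alone (adjusted p = 0.0979 and 0.104) and after thinning (0.461 and 0.523), in ranges of 0.00120 to 0.461 for Neurod4 and 0.00138 to 0.523 for Ptf1a. The Neurod4 call was also lost with voom weights (0.0817) and without D0 replicate 2 (0.0509), D0 replicate 3 (0.0890) or D3DMSO replicate 1 (0.0578). The Ptf1a call was also lost without D0 replicate 1 (0.0887). In D6DMSO against D3DMSO, 2 of 7 were called beside 56.4% of all genes: Nhlh1 was higher, as given above, and Ptf1a was called lower although 6 of 6 libraries held 0 counts of it. The Ptf1a value comes from the count of 0.5 inside the deposited log2 values, which stands for less in a deeper library, and it was 0 (adjusted p = 1) with a count of 2 added in proportion to library size (range over 15 alternatives 0.000242 to 1). No fold is given for it.

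The E proteins Tcf3, Tcf4 and Tcf12 are the partners with which proneural factors bind DNA. In RA against DMSO, 2 of 3 were called higher at both days, as were 18.9% of all genes. Tcf12 averaged 114 ± 19 CPM in D3DMSO and 228 ± 26 CPM in D3RA (mean ± SD, n = 3), and at 175 ± 2.7 CPM in D6DMSO and 614 ± 14 CPM in D6RA. Its log2 fold change was 1.01 ± 0.10 at day 3 (adjusted p = 2.07e-07) and 1.81 ± 0.10 at day 6 (adjusted p = 8.12e-11). Tcf4 was at 76.1 ± 17 and 131 ± 12 CPM at day 3 (adjusted p = 3.24e-05) and at 106 ± 5.9 and 297 ± 2.1 CPM at day 6 (adjusted p = 1.69e-08). Tcf3, which encodes E12 and E47, averaged 133 ± 12 CPM in D3RA and 143 ± 13 CPM in D6RA and was called at neither day (adjusted p = 0.723 and 0.253). With quantile normalization it was called lower at day 6 (log2 fold change -0.21, adjusted p = 0.0336, in a range of 0.0336 to 0.763).

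Id genes encode HLH proteins without a DNA-binding region, which hold E proteins in inactive pairs. At day 3, 3 of 4 were called higher with RA and 1 lower, beside 30.7% and 31.4% of all genes. At day 6, 1 of 4 was higher and 3 were lower, beside 32.6% and 33.1% of all genes. Id2 averaged 25.1 ± 5.5 CPM in D3DMSO and 165 ± 19 CPM in D3RA (log2 fold change 2.73 ± 0.13, adjusted p = 3.06e-11). At day 6 Id2 was at 133 ± 11 CPM in D6DMSO and 106 ± 2.0 CPM in D6RA, a call (adjusted p = 0.0457) that was lost after thinning (0.197), without the variance trend (0.0839) and without any 1 of 5 of the 6 libraries (0.0749 to 0.151), in a range of 0.00076 to 0.197. Id3 rose with RA at day 3, from 57.7 ± 7.2 to 127 ± 25 CPM (adjusted p = 1.19e-06), and was lower with RA at day 6, at 59.7 ± 2.7 against 91.8 ± 13 CPM (adjusted p = 0.000561). Id1 was lower with RA at both days, with a log2 fold change of -0.54 ± 0.12 at day 3 and a level of 23.4 ± 0.75 CPM in D6RA against 93.7 ± 8.2 CPM in D6DMSO (adjusted p = 2.46e-10). Id4 was higher at both days, at 33.7 ± 2.0 CPM in D6RA against 5.06 ± 0.48 CPM in D6DMSO (adjusted p = 8.33e-11).

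**Figure D4:**
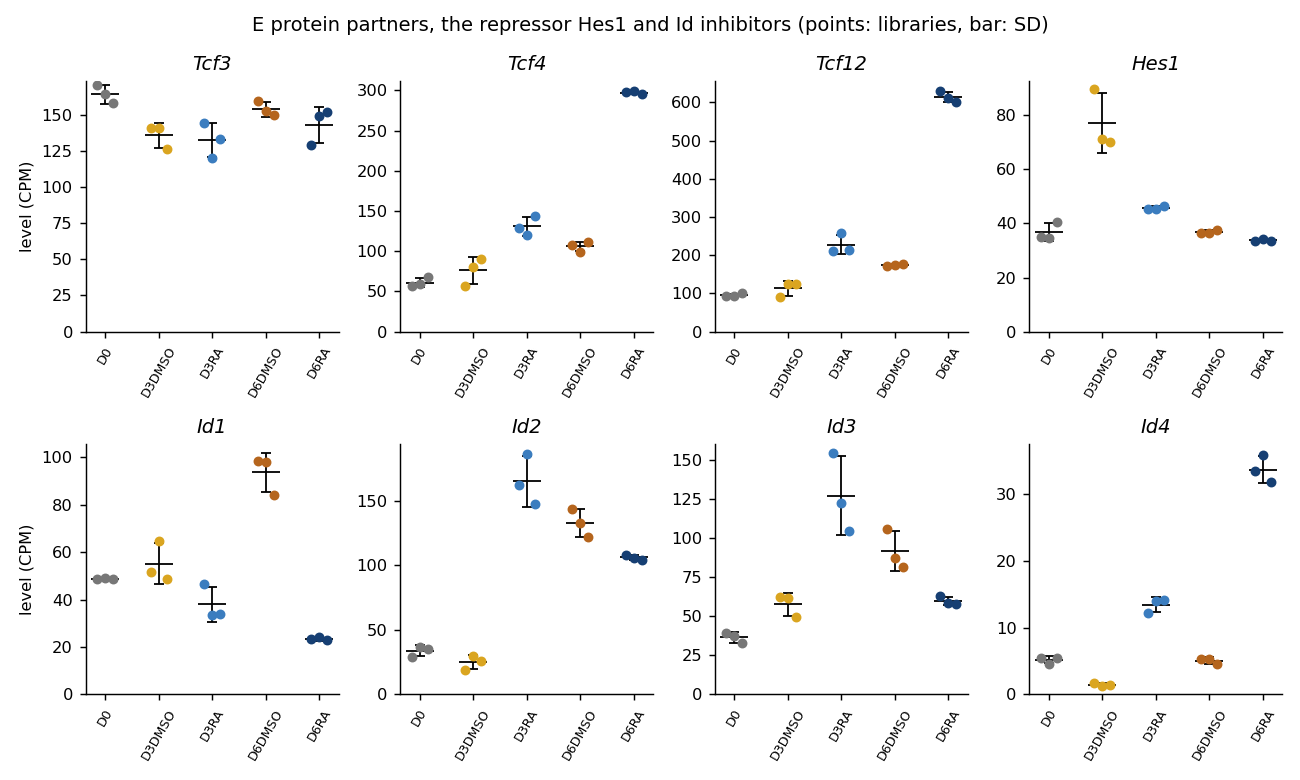
Level in CPM (vertical axes, linear, starting at 0) of the E proteins, of Hes1 and of the Id genes in the 5 groups, with points for libraries and bars for the SD of 3. Tcf12 reaches 614 CPM in D6RA, Id2 is high in D3RA (165 CPM) and in D6DMSO (133 CPM), and Id1 is lowest in D6RA (23.4 CPM).

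Hes and Hey genes encode repressors that hold progenitors back from differentiating, and 4 of 7 on the list were measured. Hes5, a Notch target of neural progenitors, was at 1.00 ± 0.49 CPM in D3DMSO, 21.0 ± 4.2 CPM in D3RA, 0.434 ± 0.12 CPM in D6DMSO and 40.1 ± 1.7 CPM in D6RA (adjusted p = 4.80e-07 and 2.32e-09 for RA against DMSO). Hes1, the best known repressor of proneural genes, was lower in D3RA than in D3DMSO (45.7 ± 0.74 against 77.0 ± 11 CPM, log2 fold change -0.74 ± 0.09, adjusted p = 2.47e-06). Both were above D0, at 36.8 ± 3.2 CPM (adjusted p = 0.00493 for D3RA and 6.18e-08 for D3DMSO). At day 6 Hes1 was at 33.7 ± 0.50 CPM with RA and 36.7 ± 0.68 CPM with DMSO (adjusted p = 0.249). It was called lower there with quantile normalization (adjusted p = 0.0250) and after thinning (0.00654), in a range of 0.00654 to 0.397. Hey1 rose at day 3 (adjusted p = 7.21e-06), as did Hey2, whose call (adjusted p = 0.0456) was lost without the variance trend (0.0673) and without any 1 of D3DMSO replicates 2 or 3 or of the D3RA libraries (0.0604 to 0.183), in a range of 0.00257 to 0.183. So 3 of 4 were higher and 1 lower at day 3, beside 30.7% and 31.4% of all genes. At day 6, 1 of 4 was higher, beside 32.6% of all genes.

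Neurogenins switch on Notch ligands in the cells that will become neurons. Of 17 Notch pathway genes, 7 were called higher and 5 lower in D3RA, and 11 higher and 4 lower in D6RA, each against DMSO, beside 30.7% and 31.4% of all genes at day 3 and 32.6% and 33.1% at day 6. The 7 became 4 in a fit of the 2 groups alone and without D3DMSO replicate 2, and the 4 lower at day 6 became 2 after thinning. Dll1, a ligand and known neurogenin target, was at 111, 230 and 166 CPM in D3DMSO and 61.2, 58.6 and 73.1 CPM in D3RA, so it was lower with RA than with DMSO at day 3 (log2 fold change -1.34 ± 0.19, adjusted p = 9.98e-06). Both groups were above D0, where Dll1 was at 5.95 ± 0.95 CPM, and the log2 fold change of D3RA against D0 was 3.43 ± 0.19 (adjusted p = 8.88e-11). At day 6 Dll1 was at 10.4, 8.61 and 9.54 CPM with DMSO and 271, 284 and 282 CPM with RA (log2 fold change 4.88 ± 0.19, adjusted p = 6.48e-13). Dll3 was likewise below DMSO at day 3 and above it at day 6, at 82.5 ± 12 CPM in D3DMSO, 10.3 ± 2.2 CPM in D3RA, 5.87 ± 0.19 CPM in D6DMSO and 40.6 ± 3.9 CPM in D6RA. D3DMSO was also the group with the highest summed mesoderm markers (1005 to 1118 CPM), and both ligands are known to act in the presomitic mesoderm as well. The part of these cells in the D3DMSO levels was not tested. Mfng, which encodes a glycosyltransferase that modifies Notch, averaged 10.4 ± 1.0 CPM in D3RA and 23.1 ± 2.6 CPM in D6RA, against 1.02 ± 0.53 and 0.475 ± 0.20 CPM with DMSO (adjusted p = 7.27e-07 and 8.69e-10). Jag1 and Notch2 were lower with RA at both days, Jag1 by 0.81 ± 0.13 and 1.71 ± 0.13 and Notch2 by 0.68 ± 0.15 and 1.09 ± 0.15 in log2 units.

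Dll4, a ligand of vessels and of some spinal and retinal progenitors, was at 8.13 ± 1.4 CPM in D3RA against 0.172 ± 0.16 CPM in D3DMSO (adjusted p = 1.82e-07). In D6RA it was at 2.97 ± 0.70 CPM, with an adjusted p of 0.300 against D6DMSO, which passed the threshold in a fit of the 2 groups alone (0.0303) and with voom weights (0.0224). Endothelial markers stood at 141 to 203 CPM in D3RA and 20.5 to 29.4 CPM in D6RA, and their part in the Dll4 level was not tested.

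The list of other bHLH genes holds neural and mesodermal factors, and 7 of the 23 counted here were measured. In RA against DMSO, 5 were called higher and 0 lower at day 3, and 2 higher and 4 lower at day 6. Of all genes 30.7% were higher and 31.4% lower at day 3, and 32.6% and 33.1% at day 6. The 0 from limma was also 0 at an unadjusted p under 0.05 and with voom weights, and 1 without D3RA replicate 1. Bhlhe22, a repressor in dorsal horn and cortical neurons, averaged 19.5 ± 3.1 CPM in D3RA and 3.85 ± 0.70 CPM in D6RA, above DMSO at both days (adjusted p = 1.47e-05 and 0.00268). Bhlhe23 was at 1.82 ± 0.19 and 1.21 ± 0.33 CPM and was called higher at both days. Twist1, a mesodermal factor, was called higher in D3RA (4.09 ± 1.5 against 0.935 ± 0.28 CPM) and lower in D6RA (0.297 ± 0.045 against 32.7 ± 5.9 CPM). Tal1, a factor of blood and endothelium and of some spinal interneurons, averaged 13.7 ± 1.2 CPM in D3RA and 0.588 ± 0.15 CPM in D6RA, while D6DMSO was at 16.1 ± 1.0 CPM.

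Known targets and effectors of neurogenins were taken as a list of 34 genes, 34 of them measured. At day 3, 26 were called higher and 3 lower with RA, beside 30.7% and 31.4% of all genes, and the 3 became 5 with voom weights and without D3RA replicate 3. At day 6, 32 were higher and 2 lower, beside 32.6% and 33.1% of all genes. From D3RA to D6RA, 28 of 34 were called higher and 2 lower, beside 37.2% and 32.0%. These 2 became 0 after thinning and 1 with a filter of 5 CPM. The 2 lower against DMSO at day 6 became 1 in each of these settings. The median log2 fold change of the list against DMSO was 2.86 at day 3 and 4.53 at day 6. The list holds neuronal genes chosen with earlier results of these data known, so it is no independent evidence of their direction. Dcx, a microtubule protein of young neurons, averaged 107 ± 21 CPM in D3RA and 831 ± 48 CPM in D6RA, against 0.465 ± 0.29 and 0.603 ± 0.26 CPM with DMSO (adjusted p = 9.52e-12 and 9.40e-14). Myt1, a zinc finger factor that works with neurogenins, averaged 43.3 ± 1.1 CPM in D3RA and 284 ± 14 CPM in D6RA (adjusted p = 2.08e-09 and 9.79e-13 against DMSO). Its relative St18 averaged 47.4 ± 16 CPM in D3RA and 50.2 ± 4.0 CPM in D6RA, with 2 counts in D3DMSO. Isl1, a factor of motor and sensory neurons and of cardiac progenitors, was lower with RA at both days (adjusted p = 0.00994 and 0.00148). Cdkn1c, a cell cycle inhibitor, was at 0.470 ± 0.060 CPM in D6RA against 1.91 ± 0.57 CPM in D6DMSO (adjusted p = 0.000743), a call that thinning ended (0.0947, the highest of a range from 1.22e-05).

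**Figure D5:**
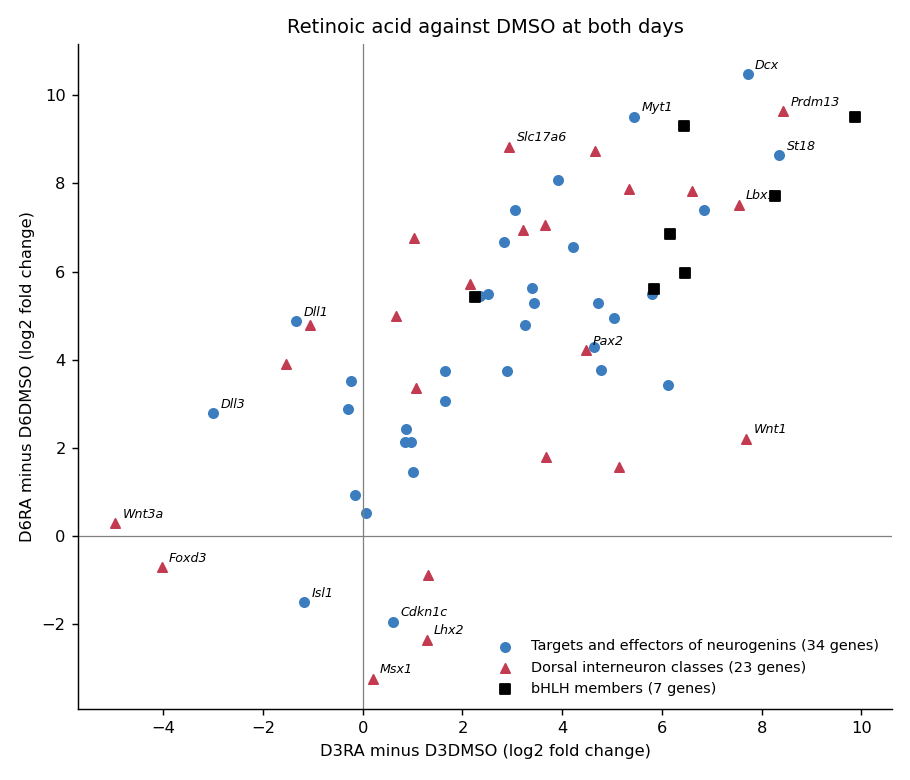
Log2 fold change of RA against DMSO at day 3 (horizontal axis) and at day 6 (vertical axis) for the 7 bHLH genes (squares), the 34 targets and effectors (circles) and the 23 dorsal interneuron genes (triangles). The 7 genes lie in the upper right, from 2.26 to 9.88 at day 3 and from 5.42 to 9.52 at day 6, while Dll1 lies at -1.34 and 4.88.

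Dorsal interneuron genes were counted because Ptf1a marks progenitors of other classes of these cells than Neurog1 and Neurog2 do. Of the 30 on the list 23 were measured, and 17 were called higher and 3 lower at day 3, and 18 higher and 3 lower at day 6, each with RA against DMSO. The shares of all genes were 30.7% and 31.4% at day 3 and 32.6% and 33.1% at day 6. Prdm13, a known target and partner of Ptf1a in dorsal progenitors, was at 55.8, 56.7 and 63.9 CPM in D3RA and 60.3, 67.0 and 70.4 CPM in D6RA, with 2 counts in D3DMSO and 7 in D6DMSO. Between the RA groups Prdm13 differed by 0.16 ± 0.77 on the log2 scale (adjusted p = 0.864). Slc17a6, the vesicular glutamate transporter of excitatory neurons, averaged 0.569 ± 0.37 CPM in D3RA and 31.7 ± 4.5 CPM in D6RA (adjusted p = 0.00119 and 4.62e-09 against DMSO). Its day 3 call rested on 7 counts in D3RA against 0 in D3DMSO. In D0 the mean of Slc17a6 was above that of D3RA, at 1.01 ± 0.27 CPM. Wnt1, a signal of the roof plate and dorsal midline, averaged 16.8 ± 1.1 CPM in D3RA and 7.90 ± 0.87 CPM in D6RA, against 0 counts in D3DMSO and 1.70 ± 0.18 CPM in D6DMSO. Wnt3a, also of the dorsal midline and of the primitive streak, was lower in D3RA (1.21 ± 0.21 against 42.7 ± 12 CPM, adjusted p = 5.29e-09). Foxd3, a gene of neural crest, of some dorsal interneurons and of pluripotent cells, averaged 64.3 ± 8.8 CPM in D0, 5.49 ± 3.5 CPM in D3DMSO and 0.169 ± 0.16 CPM in D3RA, and it was called lower in D3DMSO than in D0 (adjusted p = 1.55e-06) and in D3RA than in D3DMSO (adjusted p = 4.34e-07). Msx1 and Lhx2 were lower in D6RA than in D6DMSO, at 5.50 ± 1.2 against 51.7 ± 7.1 CPM and at 0.424 ± 0.17 against 2.12 ± 0.051 CPM.

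The genes whose log2 levels followed each bHLH gene most closely were looked up over the 15 libraries among 11635 genes of at least 5 CPM in their highest group. The coefficients are descriptions, since the libraries of a group share treatment, day and depth. For Neurod4 they were Actl6b, a neuronal chromatin remodelling subunit (r = 0.990), Dcx (0.988) and Cadps, a protein of vesicle release (0.987). For Neurog2 they were Mdga1 (0.975), Disp2 (0.974) and Rai2 (0.971). Mdga1 averaged 3.31 ± 0.91 CPM in D3RA and 14.7 ± 1.0 CPM in D6RA, a course like that of Neurog2. For Neurog1 they were Hdac2, a histone deacetylase (0.987), Lmcd1 (0.981) and Nes, the progenitor filament nestin (0.979). Nes differed little between the RA groups, at 484 ± 19 and 469 ± 3.8 CPM. For Neurod1 they were Nppc, the C-type natriuretic peptide gene (0.978), Selenok (0.968) and Tspan13 (0.967), and Nppc averaged 11.1 ± 1.3 CPM in D3RA and 7.68 ± 1.2 CPM in D6RA. For Nhlh1 they were Top2b, a DNA topoisomerase gene (0.992), Wnt4 (0.991) and Cd24a (0.990). For Nhlh2 they were the ephrin receptor gene Epha3 (0.988), Arf2 (0.988) and Bend5 (0.987), and Epha3 averaged 242 ± 32 CPM in D3RA and 205 ± 5.3 CPM in D6RA. For Ptf1a they were Tspan3 (0.989), Hsf2 (0.987) and Polr3k (0.982), genes with group means of 31.8 to 220 CPM. Ptf1a had 0 counts in D3DMSO and D6DMSO, Nhlh2 in D0 and D3DMSO, and Neurog1 and Neurod4 in D3DMSO. There the log2 values of these genes follow library size alone, which enters their coefficients.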

How the data were processed

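RNA was measured in 15 P19 libraries, in 5 groups of 3 that follow the sample titles. The 18 chromatin immunoprecipitation samples of the series were not used. A stranded, ribosome-depleted total RNA kit and single-end reads were used, per the labels' protocols. The submitters' processing notes name STAR 2.6.0c, Trimmomatic 0.32, FastQC 0.11.2, Bowtie2 2.2.9, SAMtools 0.1.19, featureCounts, edgeR, limma and the mm9 build, without the role of each.

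The values deposited by the authors are log2 values for 14717 Ensembl genes, 14228 of them matched here to a symbol. Undoing the log2, a scale per library and an added count of 0.5 gave whole numbers, within 0.05, for 100% of the values, and these were used as recovered counts. CPM follow the deposited scale between libraries, with library sizes of 2.19 to 31.9 M, set so that their geometric mean is that of the non-mitochondrial counts. Folds are ratios of summed counts over summed library sizes. They carry a 95% counting interval, given in the text where the lower group held 1 to 3 counts, and are a bound from 3 counts over the group where it held 0. Counting intervals leave out the spread between libraries.

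limma 3.58.1 in R 4.3.3, with a variance trend, was fitted to the deposited log2 values of all genes in all 15 libraries (10 residual degrees of freedom). Benjamini-Hochberg adjustment ran over all 14717 genes, and genes with an adjusted p under 0.05 were called. The filter of 1 CPM in 3 libraries removed none. Because the table is in log2 units, count models were not used. The fits were tested on simulated data of D3RA against D3DMSO. There limma over all 15 libraries called more unchanged genes than the adjusted p threshold allows. It also called more of them than the fit of the compared groups alone or voom weights did. In that setting its calls near the threshold were less strict than their adjusted p. Each unchanged gene was simulated at the same mean level in all groups, whereas the bHLH genes were near 0 without RA. How strict the calls of such genes are was not tested. Alternatives were quantile and median-of-ratios scaling, no filter, a filter of 5 CPM, no trend, the compared groups alone, a replicate block, an added count of 2, thinning to the smallest library and leaving out each library. Weights from voom in limma were added after seeing the data. Deviations of same-numbered D3RA and D3DMSO libraries from their group means correlated at r = 0.330, 0.110 and 0.165 over 11492 genes. Those of D3DMSO and D0 correlated at 0.189, 0.0967 and 0.292. Whether a replicate number marks a shared culture is not stated, so the main fit had no block. In the other comparisons at least 1 pair was at 0.1 or below.

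The 9 genes and the lists were chosen with earlier results of these data known. The genes named are the 9 where in the table, the 3 genes most correlated with each, all E proteins and Id genes, and from each other list the 2 genes with the largest called changes in each direction at each day, with a floor of 1 CPM. Hey1 was added after its values were seen. One gene of the list of other bHLH genes is not reported here and was left out of its counts. Promoter sequences are RefSeq's for GRCm38.p6, a later build than that of the processing notes, and carry no measurement of this study. Figures used Python 3.11.15, pandas 2.3.3, numpy 2.4.6, scipy 1.17.1 and matplotlib 3.10.9.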

Additional observations from a re-analysis of the deposited data

Results flagged for a closer look

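The difference between RA and DMSO changed between day 3 and day 6 for 25 genes (interaction in limma, adjusted p under 0.05). They are among the genes that the report names from the family and, by rule, from the lists. Of those genes, the interaction was not called for Neurog1, Neurod1, Nhlh1, Nhlh2, Ptf1a, Tcf3, Id4, Hey2, Notch2, Bhlhe22, Bhlhe23, St18, Isl1 and Prdm13. Of all genes, 48.5% were called in this interaction. Apart from E proteins and Id genes, list genes were named for their largest called changes with RA at either day. The interaction compares these same changes, so the 25 are a description. Among the proneural genes these were Neurog2 (3.16 on the log2 scale), with a larger excess at day 6, and Neurod4 (2.87). Neurod4 had 0 counts in D3DMSO, so its excess at day 3 is a lower bound.

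Among partners and inhibitors, Tcf4 (0.68) and Tcf12 (0.80) had a larger excess with RA at day 6. The interaction was -1.46 for Id1, -3.05 for Id2 and -1.74 for Id3, and Id2 and Id3 were above DMSO at day 3 and below it at day 6. It was 2.11 for Hes5 and 0.62 for Hes1. Hey1, which was named outside that rule, had -0.86 (adjusted p = 0.000431) and is not among the 25.

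In the Notch pathway the values were 6.21 for Dll1 and 5.78 for Dll3, which were below DMSO at day 3 and above it at day 6. Mfng was at 2.22, and Dll4 (-4.70) and Jag1 (-0.90) were negative.

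Of the remaining genes, Twist1 (-8.71) and Tal1 (-8.44) were above DMSO at day 3 and below it at day 6. The values were 2.76 for Dcx, 4.08 for Myt1 and -2.56 for Cdkn1c among targets and effectors. Among dorsal interneuron genes they were -5.49 for Wnt1, 5.25 for Wnt3a, 3.32 for Foxd3, 5.89 for Slc17a6, -3.45 for Msx1 and -3.64 for Lhx2. Wnt1 and Slc17a6 had 0 counts in D3DMSO, so the size of their values depends on the count of 0.5 inside the deposited log2 values.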

How the results depend on the processing

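The 7 genes were called higher in D3RA against D0, D3RA against D3DMSO and D6RA against D6DMSO under each alternative run, except that with a filter of 5 CPM Ptf1a left the table and 6 of 6 remained. These calls are a description, because the genes entered the table through RA libraries. Of 819 values of single genes under an alternative, 788 kept their side of the threshold, 24 lost a call and 7 gained one. A call in either fit went with a reversed direction in 0. Values called in neither fit are among the 788 even where their sign changed. Counts of called genes over the whole table moved by less than 1.5 times. Genes of the family called in D3DMSO against D0 numbered 2, and 1 with a filter of 5 CPM, 0 in a fit of the compared groups alone, 0 after thinning, 1 with voom weights and 1 to 3 when each library was left out in turn. In D6RA against D3RA they numbered 5, and 3 to 4 when each library was left out. In D6DMSO against D3DMSO they numbered 2, and 1 with quantile normalization, with a filter of 5 CPM, with the compared groups alone and after thinning. In the interaction they numbered 2, and 1 after thinning. Of the genes not discussed above, a count of 2 added in proportion to library size brought a call of Nhlh2 in D6DMSO against D3DMSO (adjusted p = 0.0139) and of the Neurog1 interaction (0.00318), and Neurog1 was called in D6DMSO against D3DMSO without D6DMSO replicate 1 (0.00525). With a replicate block, Ptf1a was not called in D6RA against D3RA (adjusted p = 0.0521), and the block changed no other call among the 7 genes. Deviations of same-numbered libraries of these 2 groups correlated at -0.216, -0.211 and -0.00755. Taking CPM per non-mitochondrial count gave Neurog1 19.8 CPM in D3RA and 8.68 CPM in D6RA, and Neurod1 9.51 and 6.80 CPM. The planned count model in edgeR was not run, because the deposited unit is log2. In D3RA the shallowest library had 1 count worth 0.457 CPM, which limits what can be said of Neurog2 and Ptf1a there.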

Other observations

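The promoter windows of the family differ in base composition. G and C made up 71.2% of the 250 bases before the start of Neurog1, 67.6% before Neurod1 and 66% before Ptf1a, against a median of 52.4% over all 32851 windows. Nhlh2 had 42%. The pair CG occurred 29 times in the window of Neurog1, 22 times in that of Neurod1 and 19 times in that of Ptf1a, against 2 times in those of Nhlh1 and Nhlh2 and a median of 6.

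Other short motifs, searched on both strands, were found as follows. CCAAT was present in 4 of 7 genes (Neurog1, Nhlh1, Nhlh2 and Ptf1a) and in 33.85% of all windows. The N-box CACNAG, to which Hes repressors bind, was present in 2 of 7 (Neurod4 and Nhlh2) and in 36.67% of windows. AGGTCA, a unit of the element bound by retinoid receptors, was present before Neurog1, 111 bases from its start, and in 14.02% of windows. AGGTCA repeated in the same direction with a gap of 5 bases was in 0 of 7 and in 3 windows in all, and TATAAA in 0 of 7 and in 12.37%. These letters are not evidence of binding, and where they are missing nothing follows about the factor.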
